A study of Mus musculus with 13 samples.

Results

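The genes described are the enzymes that turn arachidonic acid into leukotrienes, hydroxy fatty acids and prostaglandins. They were chosen by symbol, as 10 of the 31053 genes counted in single cells of mouse lung, with 6 in the lipoxygenase arm (Alox5, Alox5ap, Lta4h, Ltc4s, Alox12 and Alox15) and 4 in the prostaglandin arm (Ptgs1, Ptgs2, Ptges and Hpgds). The study asked whether eosinophils take part in emphysema. The labels name 13 single-cell lung samples, 1 each of Asthma, Control, PPE-emphysema and PPE-recovery and 3 each of Acute injury, Con and emphysema. By the study's account single-cell sequencing covered the first 4 groups, with 1 mouse per group. It describes no single-cell work on the acute injury group, whose lung transcriptomes it compared separately with those of controls and emphysema. It also states that both single-cell and bulk RNA sequencing of mice were placed in this series. The models were ovalbumin for asthma and porcine pancreatic elastase (PPE) to damage the alveoli, given only once for PPE-recovery. The study obtained C57BL/6 mice and names this strain for its acute injury and emphysema models. It does not repeat the strain for the first 4 groups. For the models named acute injury and emphysema, the study describes weekly instillations of PPE, with lungs taken after the first dose or after the last. The deposited counts form a single matrix in which a barcode ends in 1 of 7 library numbers without naming its sample, so it is not known which of the 13 samples these are, the libraries were compared by number only, and no test between groups was possible. A UMI is a molecular tag that stands for 1 captured RNA molecule, and a level is the number of a gene's UMIs in every 1000000 UMIs of a class of cells (CPM). The interval in parentheses after a level is the exact Poisson 95% interval of the pooled count. It covers counting error only and not differences between cells or between mice, so intervals that lie apart are not a test.

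In mouse GRCm38 annotation, Ltc4s (50236461 to 50238616), Alox12 (70241457 to 70255353) and Alox15 (70344152 to 70352031) all lie on the minus strand of chromosome 11, and the other genes lie on other chromosomes. In this pathway the cyclooxygenases Ptgs1 and Ptgs2 open the route to prostaglandins, and Alox5, helped by its activating membrane protein Alox5ap, opens the route to leukotrienes. Lta4h then makes the neutrophil attractant leukotriene B4, and Ltc4s joins glutathione to make leukotriene C4, the parent of the cysteinyl leukotrienes that contract airways. Ptges and Hpgds complete prostaglandin E2 and D2. Alox12 is the lipoxygenase of platelets, and Alox15 of the mouse oxygenates arachidonic acid to hydroxy acids and serves the resolution of inflammation, with eosinophils and resident macrophages of the body cavities as known sources.

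The cyclooxygenases Ptgs1 and Ptgs2 catalyse the same reaction but were highest in different classes of cell, so the 250 bases before the annotated start of each are shown from the RefSeq promoter table (GRCm38.p6, plus strand for both), which matched 8 of the 10 genes. Capitals mark GGGCGG on either strand.
Ptgs1, chr2:36230176-36230425: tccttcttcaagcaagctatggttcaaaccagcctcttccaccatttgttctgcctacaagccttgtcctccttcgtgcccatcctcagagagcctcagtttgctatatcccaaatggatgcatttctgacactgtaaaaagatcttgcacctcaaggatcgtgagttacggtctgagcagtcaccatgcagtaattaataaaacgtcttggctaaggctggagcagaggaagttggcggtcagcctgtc
Ptgs2, chr1:150099781-150100030: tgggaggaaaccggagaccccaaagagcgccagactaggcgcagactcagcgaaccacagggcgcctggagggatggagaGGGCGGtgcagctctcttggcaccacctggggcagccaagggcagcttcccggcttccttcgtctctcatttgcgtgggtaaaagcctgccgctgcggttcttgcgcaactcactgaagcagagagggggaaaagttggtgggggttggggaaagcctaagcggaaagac
The windows were searched on both strands for the TATA box TATAAA, for the GC box GGGCGG, for the E-box CACGTG and for ACGTCA, the core of the cyclic AMP response element. The Ptgs2 window held 1 GGGCGG, which starts 170 bases before the start, and none of the other motifs. The Ptgs1 window held none of them. Bases after the annotated start or more than 250 bases before it were not searched. A motif missing from a window may therefore still lie in the promoter of that gene. Over 32851 windows of the same length, 12.4% held TATAAA, 32.7% GGGCGG, 6.0% CACGTG and 6.5% ACGTCA. G and C made up 61.6% of the Ptgs2 window and 48.0% of the Ptgs1 window.

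Of 37344 barcodes, 33618 had at most 10% of their UMIs from mitochondrial genes and were kept, with medians of 5272 to 9114 UMIs per library. Libraries 1, 2, 3 and 7 (20856 cells) held the alveolar surfactant gene Sftpc at 2674 to 9212 CPM. Libraries 4, 5 and 6 (12762 cells) held it at 0 to 0.0660 CPM, took 35.3% to 40.6% of their UMIs from hemoglobin genes and had no barcode under 3439 UMIs, against 304 to 501 in the others. Although the labels name lung for all samples, the defining epithelial marker was thus at or near 0 in these 3 libraries, and they are reported apart. Pairs of libraries shared between 2 and 17 barcode sequences, at most 0.367% of the smaller library. Cells were clustered without the pathway's genes and classes were named from marker lists. They are written as X-like.

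Over the 22 classes with at least 50 cells in libraries 1, 2, 3 and 7, the leukotriene genes were highest in granulocytes and alveolar macrophages and the prostaglandin genes were spread over neutrophils, macrophages, fibroblasts and alveolar epithelium. A single class led by at least 3-fold for 2 of the 10 genes, Alox15 (eosinophil-like, 3.58-fold above basophil-like) and Hpgds (C1q macrophage-like, 4.55-fold above Arg1 Mmp12 macrophage-like). The same held for 13.0% of the 14803 genes with at least 100 UMIs there, so that the count of 2 is near the background. The median ratio of the highest to the next class was 2.05 over the 10 genes and 1.32 over all genes tested. Without library 1 the count rose to 4, with Alox5 and Ptgs2 added, for both of which the next class had been basophil-like, a class of 77 cells that fell under the minimum of 50 without the 35 of library 1. Alox5ap was then highest in eosinophil-like cells. Without alignment of the libraries it was 1, Hpgds alone.

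**Figure D1:**
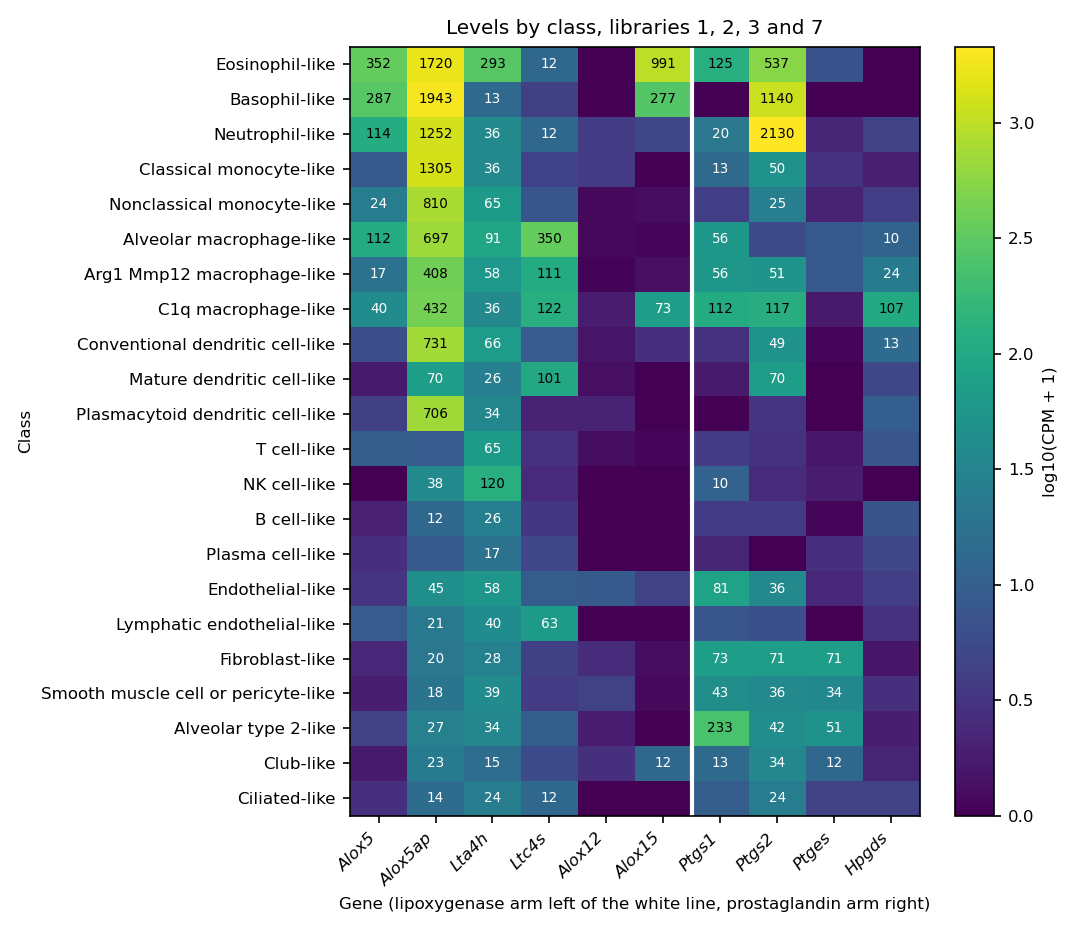
Levels of the 10 genes (columns) in the 22 classes (rows) of libraries 1, 2, 3 and 7, as the colour of log10(CPM + 1), with the CPM printed where it is 10 or more. Alox5 and Alox15 stand out in the eosinophil-like and basophil-like rows. Alox5ap is highest in the same rows and is also high in the classical monocyte-like (1305 CPM) and neutrophil-like (1252 CPM) rows. Ltc4s is highest in the alveolar macrophage-like row at 350 CPM and Ptgs2 in the neutrophil-like row at 2130 CPM. Ptges is highest in the fibroblast-like row at 71.2 CPM and Hpgds in the C1q macrophage-like row at 107 CPM.

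Eosinophil-like and basophil-like cells carried the start of the leukotriene route and few UMIs of Ltc4s. Alox5 was at 352 CPM (268 to 454) in eosinophil-like and 287 (230 to 353) in basophil-like cells, whose intervals overlap, and next came neutrophil-like cells with 114 (106 to 122) and alveolar macrophage-like cells with 112 (109 to 115). Alox5ap was at 1943 CPM (1791 to 2104) in basophil-like and 1720 (1527 to 1930) in eosinophil-like cells, again with overlapping intervals. It was also high in classical monocyte-like cells at 1305 (1279 to 1331) and in neutrophil-like cells at 1252 (1224 to 1279). Ltc4s had 2 UMIs in 243 eosinophil-like cells, 11.9 CPM (1.45 to 43.1). Hpgds had no UMI there, which allows up to 17.9 CPM.

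Eosinophil-like cells were few and shallow. The class held 246 cells with a median of 565.5 UMIs, of which 207 were in library 7, 30 in library 1, 4 in library 3, 3 in library 6 and 2 in library 2. Of its markers, Ccr3 (the eotaxin receptor) had a UMI in 43.5% of the cells, Prg2 (major basic protein) in 24.8% and Siglecf, which alveolar macrophages also express, in 14.6%. Il5ra was in 2.44%, Epx (eosinophil peroxidase) in 0.813% and Prg3 in none. In the 243 cells of the lung libraries the eosinophil marker list summed to 1994 CPM. This was above the basophil list, 520 CPM, and below the neutrophil and alveolar macrophage lists. The neutrophil marker list summed to 5858 CPM there, with 2 of its 6 markers in at least 10% of them, against 94991 CPM in neutrophil-like cells. The alveolar macrophage list summed to 2293 CPM, again with 2 markers at that share. The part of either in the levels of the enzymes was not tested. Without library 7, 36 cells were left in the lung libraries, with Alox5 at 225 CPM (82.6 to 490), Alox5ap at 975 (637 to 1429), Lta4h at 150 (40.9 to 384) and Alox15 at 788 (488 to 1204). The 3 cells of library 6 had 79930 UMIs and no UMI of any of the 10 genes. With no alignment of the libraries, Alox5 in the class was 188 CPM and Alox15 563 CPM.

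Lta4h, the leukotriene B4 enzyme, was found in most classes, with a median of 36.4 CPM over the 22. It was highest in eosinophil-like cells at 293 CPM (216 to 387), then in NK cell-like cells at 120 (102 to 141). In NK cell-like cells the lung libraries ranged from 110 to 150 CPM, and libraries 5 and 6 held 146 and 82.4 CPM. Alveolar macrophage-like cells followed with 90.7 (88.0 to 93.4). Basophil-like cells had 4 UMIs of Lta4h, 12.9 CPM (3.51 to 33.0), below the median of 36.4. Erythroid-like and platelet-like cells of libraries 4, 5 and 6 were nearly without it, at 0.501 CPM (0.259 to 0.875) and 0.521 (0.169 to 1.22). Among neutrophil-like cells, library 4 stood apart with 109 CPM of Lta4h, against 15.6 to 42.6 in the other 6 libraries. The same library had the highest level of the immature neutrophil list, 28138 CPM against 1799 to 5795, and its part in the result was not tested.

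Ltc4s was a gene of tissue macrophages, and its level differed from library to library. Alveolar macrophage-like cells held 350 CPM (344 to 355), C1q macrophage-like cells 122 (116 to 130), Arg1 Mmp12 macrophage-like cells 111 (106 to 117) and mature dendritic cell-like cells 101 (89.2 to 113). The intervals of the C1q and Arg1 Mmp12 classes overlap, and so do those of the Arg1 Mmp12 and mature dendritic classes. The C1q value was 83.6 CPM without 18 cells that carried markers of body cavity macrophages and are described with Alox15. Lymphatic endothelial-like cells were the highest named class outside the leukocytes with 63.4 CPM (51.3 to 77.6). Neutrophil-like cells, which carried Alox5 and Alox5ap, held 12.1 CPM (9.56 to 15.1). A Ltc4s UMI was found in 90.2% of alveolar macrophage-like cells (39.3% once each cell was thinned to 1500 UMIs) and in 3.06% of fibroblast-like cells, taken as background (0.545% thinned), at median depths of 14755 and 11222 UMIs.

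Within alveolar macrophage-like cells, library 3 had the highest Alox5 and Ltc4s and the lowest Ptgs1 and Ptgs2. Alox5 was at 72.8, 95.4, 202 and 71.4 CPM in libraries 1, 2, 3 and 7, so that library 3 was 2.84-fold above the lowest, library 7. Ltc4s was at 267, 360, 439 and 295 CPM in the same order. Ptgs1 went the other way, at 80.7, 63.5, 12.3 and 71.9 CPM, and Ptgs2 at 8.12, 5.86, 0.798 and 5.45 CPM. The intervals of library 3 lay apart from those of each of the other libraries for these 4 genes. Alox5ap did not follow Alox5, at 508, 773, 768 and 627 CPM, with its lowest level in library 1. Hpgds was also lowest in library 1, with 1.58 CPM against 16.1, 5.67 and 12.7 in libraries 2, 3 and 7. Library 1 also stood apart in the median mitochondrial share of these cells, which was higher than the 4.36% to 4.53% of the others, and in the alveolar macrophage list, 69076 CPM against 17694 to 38926, and the part of either in its levels was not tested. Lta4h moved less, from 84.1 CPM in library 1 to 99.8 in library 3, although the intervals of these libraries lay apart too.

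The difference of library 3 was also present within single clusters of these macrophages. In cluster 4, Alox5 was at 114, 102, 205 and 74.4 CPM and Ptgs1 at 69.7, 61.8, 11.2 and 69.8 CPM in libraries 1, 2, 3 and 7. In cluster 15, which held 494 of the 634 cells of library 1, Alox5 was at 65.9, 75.7, 203 and 74.5 CPM and Ptgs1 at 83.0, 50.2, 16.9 and 68.0 CPM. The Arg1 Mmp12 macrophage list moved with it: it summed to 1030 CPM in the alveolar macrophage-like cells of library 3 and to 4005, 4495 and 3318 CPM in libraries 1, 2 and 7. Library 3 also held 9 Arg1 Mmp12 macrophage-like cells, against 514, 176 and 697. The part of either in the result was not tested, and the treatment behind each library is unknown here, so library and condition cannot be told apart.

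**Figure D2:**
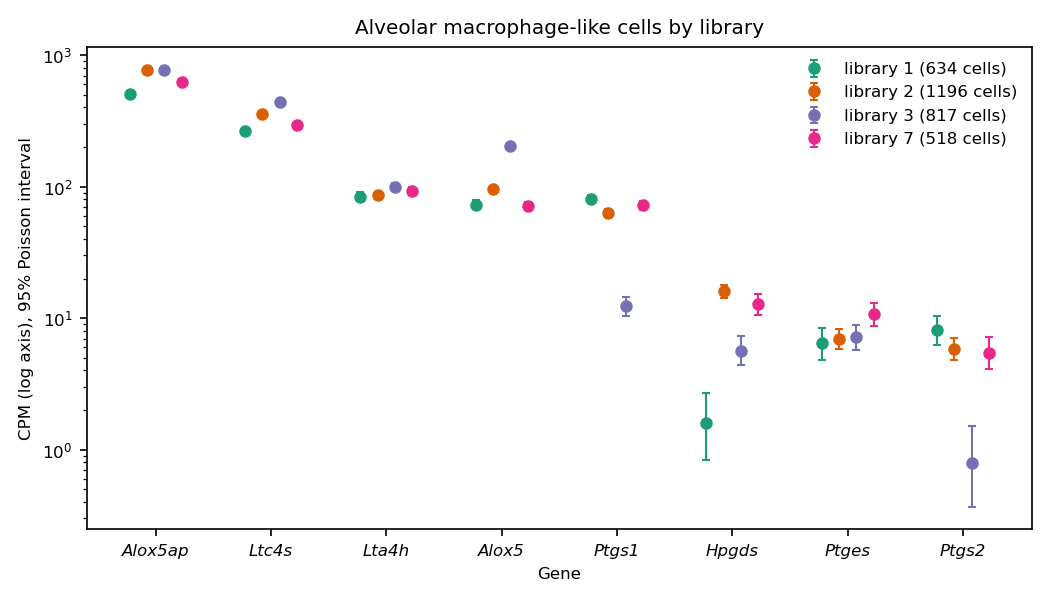
Levels of 8 genes in alveolar macrophage-like cells of libraries 1, 2, 3 and 7 (634, 1196, 817 and 518 cells), as CPM on a log axis with 95% Poisson intervals. Library 3 has the highest points for Alox5 (202 CPM) and Ltc4s (439 CPM) and the lowest for Ptgs1 (12.3 CPM) and Ptgs2 (0.798 CPM), and library 1 has the lowest for Hpgds (1.58 CPM).

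Ptgs2, the inducible cyclooxygenase, was in most neutrophil-like cells of the lung libraries and in few of those of the others. In libraries 1, 2, 3 and 7 it was at 1962, 2006, 1866 and 2670 CPM, with a UMI in 67.5%, 85.2%, 87.3% and 78.2% of the cells. In libraries 4, 5 and 6 it was at 7.15, 46.7 and 18.5 CPM, with a UMI in 4.01%, 15.8% and 7.21%. Both sets were far apart, since the lowest lung value, 1866, lay above the highest of the others, 46.7. Alox5ap, by contrast, was at 982 to 1305 CPM and Alox5 at 72.1 to 121 CPM in all 7 libraries. After thinning to 1500 UMIs, which equalises depth, 76.1% of the neutrophil-like cells of the lung libraries and 3.08% of those of the others had a Ptgs2 UMI. In B cell-like cells of the lung libraries, taken as background, the share was 0.987% (0.431% thinned) at a median of 4051 UMIs.

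The neutrophil-like cells of the library sets lay mostly in different clusters, and several measures moved with Ptgs2. Cluster 7, with 1472 of its 1490 cells from the lung libraries, held 2793 CPM, and cluster 16, with 689 of 734 cells from libraries 4, 5 and 6, held 29.8 CPM. The immature neutrophil list summed to 28138 CPM in library 4, but in libraries 5 and 6, at 1799 and 1905 CPM, it was as low as in library 2, at 1806 CPM. The median depth of the neutrophil-like cells was 5080 to 8640 UMIs in libraries 4, 5 and 6 and 2291 to 3061.5 in the others, and barcodes of low depth were absent from the former. The part of these in the result was not tested. Ptgs2 had no UMI in the 1153 classical monocyte-like cells of libraries 4, 5 and 6, which allows up to 0.216 CPM, and was at 34.2 to 176 CPM in those of the lung libraries. Nonclassical monocyte-like cells likewise had none (up to 0.590 CPM) against 13.8 to 43.2 CPM.

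**Figure D3:**
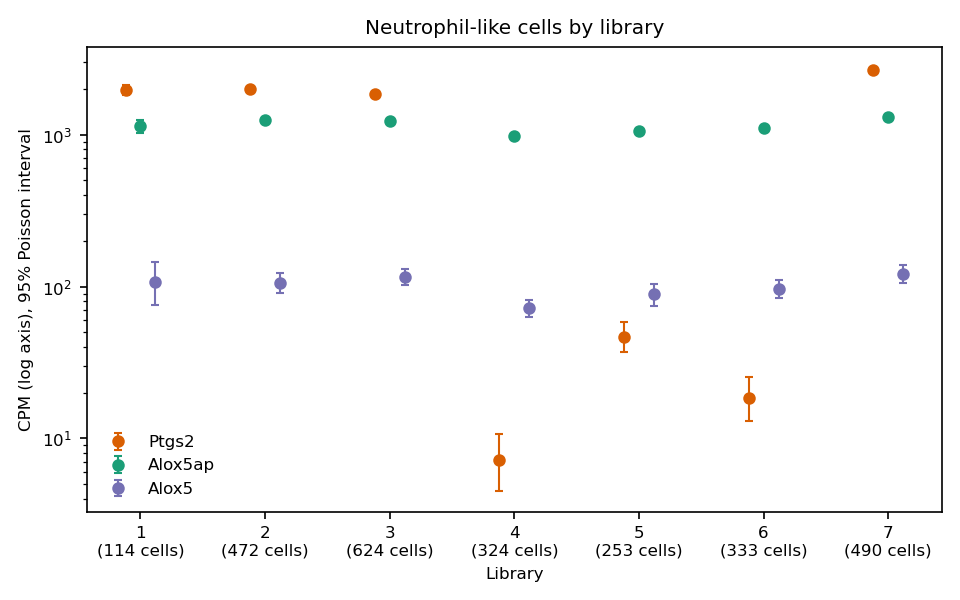
Levels of Ptgs2, Alox5ap and Alox5 in neutrophil-like cells of each library, as CPM on a log axis with 95% Poisson intervals, with the number of cells under each library. Ptgs2 falls from at least 1866 CPM in libraries 1, 2, 3 and 7 to at most 46.7 CPM in libraries 4, 5 and 6, and Alox5ap stays between 982 and 1305 CPM.

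Among the other classes, basophil-like cells had 1140 CPM of Ptgs2 (1025 to 1266) and eosinophil-like cells 537 (432 to 661). In basophil-like cells it was at 837, 550, 2332 and 1127 CPM in libraries 1, 2, 3 and 7, from 35, 19, 15 and 8 cells, and it was found in 32.5% of the cells. Fibroblast-like cells held 70.7 CPM (66.8 to 74.8), with 133, 44.4, 123 and 62.0 CPM by library. A cluster of 25 cells that was named Arg1 Mmp12 macrophage-like but led by Acod1 and Hmox1 held 499 CPM.

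Ptgs1, the constitutive cyclooxygenase, was highest in alveolar type 2-like cells and was also found in eosinophil-like, macrophage-like, endothelial-like and fibroblast-like cells. Alveolar type 2-like cells held 233 CPM (221 to 245) and had 313, 230, 178 and 306 CPM in libraries 1, 2, 3 and 7. With a limit of 5% on mitochondrial genes the value was 106 CPM, and eosinophil-like cells then ranked first. Mesothelial-like cells, too few for the ranking with 40 cells, held 328 CPM (288 to 371). Eosinophil-like cells held 125 CPM (77.6 to 192) and C1q macrophage-like cells 112 (105 to 119), with overlapping intervals. Endothelial-like cells followed with 81.1 (77.2 to 85.1) and fibroblast-like cells with 73.4 (69.5 to 77.6). Basophil-like cells, which were second for Ptgs2, had no Ptgs1 UMI in 77 cells, which allows up to 9.67 CPM.

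Ptges, which makes prostaglandin E2, and Hpgds, which makes prostaglandin D2, were highest in different classes. Alveolar macrophage-like cells held both at low levels, Ptges at 7.65 CPM (6.89 to 8.48) and Hpgds at 10.4 (9.53 to 11.4). Ptges was at 71.2 CPM (67.3 to 75.3) in fibroblast-like cells, 51.0 (45.6 to 56.8) in alveolar type 2-like cells and 34.4 (29.7 to 39.7) in cells named as smooth muscle or pericytes. Its fibroblast level was 85.6, 60.2, 84.7 and 148 CPM in libraries 1, 2, 3 and 7. In B cell-like cells 1 of 1419 had a Ptges UMI, the background for a share of 45.7% in fibroblast-like cells (8.44% thinned). Hpgds was at 107 CPM (101 to 114) in C1q macrophage-like cells and 23.6 (21.3 to 26.1) in Arg1 Mmp12 macrophage-like cells. In C1q macrophage-like cells it was at 61.0, 186, 104 and 93.4 CPM in libraries 1, 2, 3 and 7. A Hpgds UMI was found in 48.8% of C1q macrophage-like and 0.533% of fibroblast-like cells, or 15.9% and 0.136% after thinning.

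Alox12, the platelet lipoxygenase, followed the platelet markers from class to class in libraries 4, 5 and 6. It had 4772 of its 5147 UMIs in libraries 4, 5 and 6, where platelet-like cells held 140 CPM (133 to 148), with 94.4, 217 and 106 CPM in that order. Every other class of at least 20 cells there held it too, from 15.4 CPM in plasmacytoid dendritic cell-like to 66.3 CPM in B cell-like cells. The 6 platelet markers (Pf4, Ppbp, Itga2b, Gp9, Gp1bb and Tubb1) moved with it: the classes had 5.08 to 9.13 Alox12 UMIs for every 100 UMIs of these markers. In B cell-like cells it rose from 13.1 CPM (9.21 to 18.2) in the 427 cells with no platelet marker to 21.3 (17.7 to 25.4) with 1 and 93.5 (88.7 to 98.6) with at least 2. T cell-like cells had 2.82, 11.6 and 61.8 CPM in the same order and erythroid-like cells 4.17, 14.9 and 38.4 CPM. Free or attached platelet RNA and expression by these cells cannot be told apart from such values.

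In the lung libraries Alox12 was low, and the highest class was endothelial-like with 7.75 CPM (6.59 to 9.04), at 4.93, 7.83, 10.2 and 7.83 CPM in libraries 1, 2, 3 and 7. The intervals of these 4 values overlap. The platelet list summed to 73.5 CPM in this class, and Alox12 had 10.5 UMIs for every 100 of the list. C1q macrophage-like cells had a high platelet list, 1243 CPM, but 7.54 CPM of Ppbp and 0.838 CPM (0.362 to 1.65) of Alox12. With libraries 4, 5 and 6 left out before clustering, the eosinophil-like class ranked first for Alox12, and at a resolution of 0.4 the erythroid-like class did. Under the main settings neither class had an Alox12 UMI in the lung libraries. This allows up to 17.9 CPM in 243 eosinophil-like cells and up to 91.4 CPM in 32 erythroid-like cells.

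**Figure D4:**
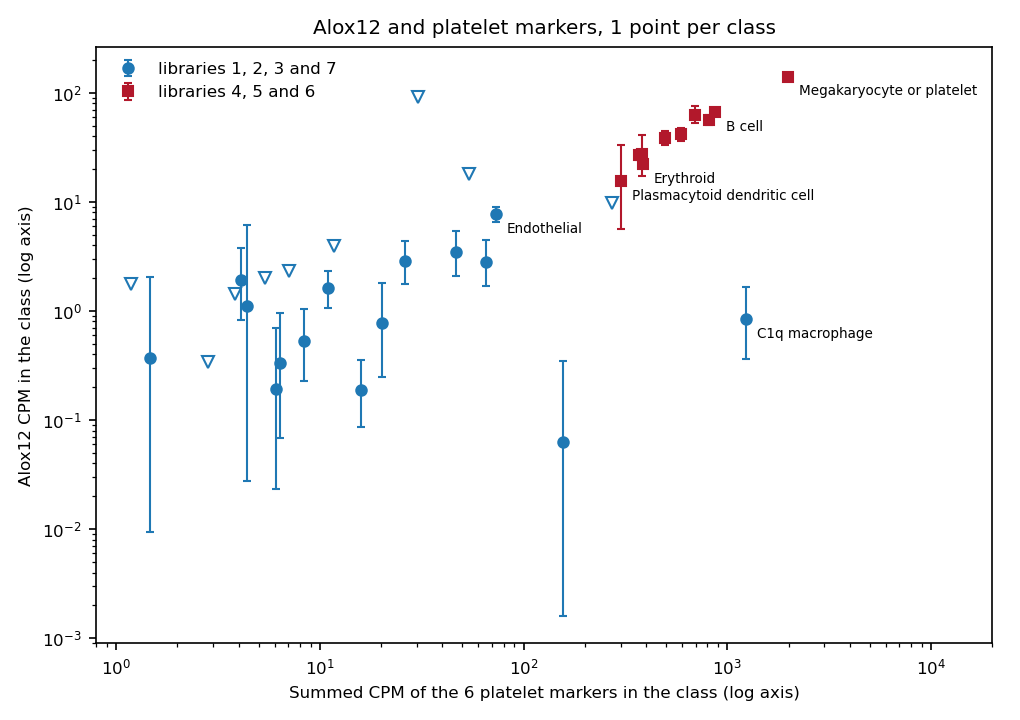
Alox12 CPM against the summed CPM of 6 platelet markers, both on log axes, with 1 point for each class of at least 20 cells in libraries 1, 2, 3 and 7 (circles) and in libraries 4, 5 and 6 (squares). Bars are 95% Poisson intervals, and open triangles mark the upper limit of a class with no Alox12 UMI. The squares rise together from 15.4 to 140 CPM, and endothelial-like cells are the highest circle at 7.75 CPM.

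Most cells with an Alox15 UMI were neither eosinophil-like nor Ccr3-positive. Of 239 such cells with 1229 UMIs, 88 were in the eosinophil-like class, 9 more carried Ccr3 elsewhere, and 142 (59.4%, exact 95% binomial interval 52.9 to 65.7) were in neither set. These 142 cells held 1044 UMIs, or 84.9% of all. Both shares depend on the number and depth of the cells in each class. In the lung libraries the median was 564 UMIs in eosinophil-like and 10442.5 in C1q macrophage-like cells. As a level, Alox15 was higher in eosinophil-like cells, at 991 CPM (846 to 1154) against 73.0 (67.7 to 78.6). Of the 226 cells with Ccr3, 55 also had Alox15. The count of 142 fell to 60 when cells were thinned to 1500 UMIs, to 60 when at least 2 Alox15 UMIs were asked for, and to 88 without library 1.

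By number of cells, the largest set of them was basophil-like. Alox15 was in 53 of the 88 basophil-like cells, of which 46 had no Ccr3, with at most 4 UMIs each. In the lung libraries the share was 61.0% (35.5% thinned), against 0.333% (0.204% thinned) in fibroblast-like cells, taken as background. Their level was 277 CPM (222 to 342) in the lung libraries and 266, 309, 304 and 211 CPM in libraries 1, 2, 3 and 7. Each of the 6 basophil markers was found in a higher share of the 46 cells than of the 35 basophil-like cells without Alox15, from the protease gene Mcpt8 (60.9% and 60.0%) to the IgE receptor subunit gene Ms4a2 (93.5% and 74.3%). Cd200r3 was in 95.7% and 82.9%, Fcer1a in 95.7% and 85.7%, Gata2 in 95.7% and 88.6% and Il4 in 52.2% and 37.1%. By level, Mcpt8 was lower in the 46 cells (883 and 1295 CPM), and the other markers were higher. Shares of cells rise with depth, and basophil-like cells of the lung libraries with Alox15 were deeper (medians of 4104 and 3702 UMIs). These differences were not tested. In the lung libraries, basophil-like cells with Alox15 held 286 CPM of Alox5 (216 to 370) and those without it 288 (197 to 407). The same was seen in eosinophil-like cells, with Alox5 at 409 CPM (272 to 592) in the 88 cells with Alox15 and 313 (213 to 444) in the 155 without, and Alox5ap at 1783 (1481 to 2129) and 1676 (1431 to 1951). The intervals of each pair overlap. Ptgs2 differed in the eosinophil-like cells, at 804 CPM (606 to 1046) with Alox15 and 353 (246 to 491) without, but its UMIs came from only 11 and 14 cells, and the cells with Alox15 were deeper (medians of 644.5 and 509 UMIs).

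The largest number of captured Alox15 molecules was in a few macrophages. Of the 142 cells, 34 were C1q macrophage-like, with 697 UMIs and up to 118 in a single cell. Against the 808 other cells of the class, the 10 genes of highest fold in them were Ltbp1, Gata6, Serpinb2, Saa3, Prg4, Prtn3, F5, Slpi, Selp and Lrg1. Gata6 is the transcription factor of peritoneal and pleural cavity macrophages, and Prg4, F5 and Serpinb2 are with it on the marker list of those cells. Gata6 had a UMI in 13 of the 34 cells and in 1 of the 808, and Prg4 was at 1348 against 8.76 CPM. C1qa was in 91.2% of the 34 and 93.2% of the 808 cells, while Ms4a7 was in 29.4% and 70.0%.

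Read by the cavity markers, which do not include any of the 10 enzymes, the class fell into cells with many and cells with few. This split was chosen after seeing the clusters. Gata6, Prg4, F5 and Serpinb2 are among both these markers and the genes of highest fold in the Alox15 cells. The share and level of Alox15 by cavity markers therefore describe the same overlap again and are not independent support for it. Of its 842 cells, 18 had 3 to 6 of the 6 cavity markers, and 15 of these had Alox15, with 660 UMIs and 2257 CPM (2088 to 2436). Of 735 cells with none of the markers, 16 had Alox15, at 3.91 CPM (2.65 to 5.54). The 18 cells were spread over the lung libraries, with 3 of 337, 8 of 287, 4 of 119 and 3 of 97 cells of the class in libraries 1, 2, 3 and 7. The class as a whole held 31.5, 194, 250 and 163 CPM of Ltc4s and 22.9, 115, 151 and 78.6 CPM of Alox15 in the same order. The 21 cells of the whole matrix with at least 10 Alox15 UMIs held 842 of the 1229, and 18 of these cells had at least 3 cavity markers. Scrublet called none of the 21 a doublet. In the libraries of these cells it called from 0.307% (library 5) to 5.63% (library 2) of the cells, so the lack of a call does not show that they are single cells.

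These 18 macrophages differed from the other 824 C1q macrophage-like cells in both arms of the pathway. Ltc4s was at 1344 CPM (1214 to 1484) against 83.6 (77.9 to 89.7), Alox5 at 147 (106 to 198) against 36.0 (32.2 to 40.0) and Alox5ap at 910 (804 to 1026) against 416 (403 to 429). Ptgs1 was at 383 CPM (315 to 461) against 103 (96.6 to 110). Hpgds, for which the class as a whole was the highest of the 22, had no UMI in the 18 cells, which allows up to 10.3 CPM, against 110 (104 to 117) in the others. Lta4h, at 27.4 CPM (11.8 to 53.9) and 36.2 (32.4 to 40.3), and Ptgs2, at 106 (72.0 to 150) and 117 (110 to 124), had overlapping intervals. The 18 cells were deeper, with a median of 16730 UMIs against 10144 in cells without cavity markers, which CPM takes into account and shares of cells do not.

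**Figure D5:**
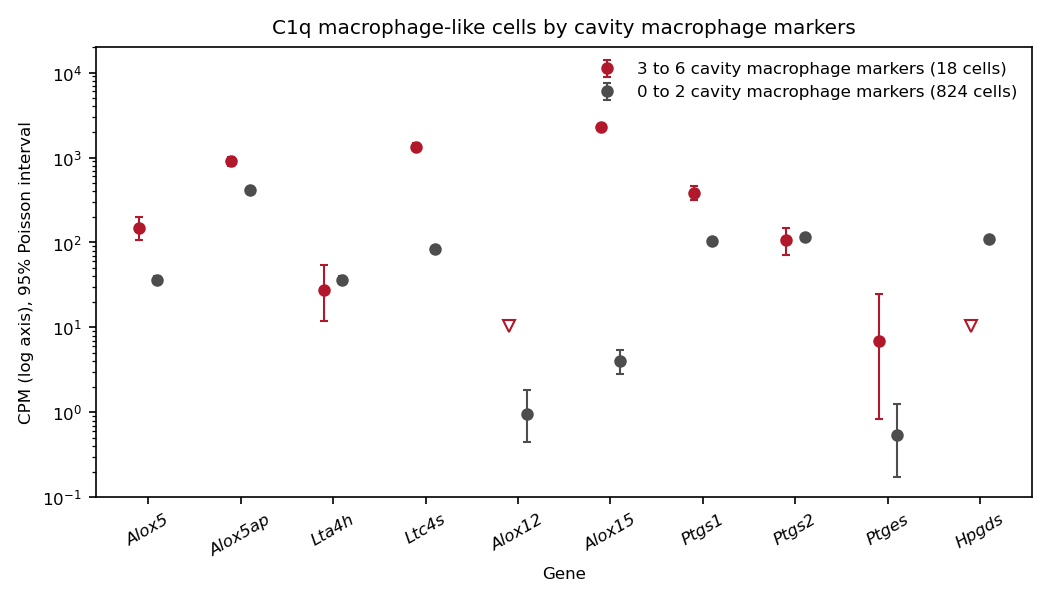
Levels of the 10 genes in C1q macrophage-like cells with 3 to 6 cavity macrophage markers (18 cells) and with 0 to 2 (824 cells), as CPM on a log axis with 95% Poisson intervals. Open triangles mark the upper limit where there was no UMI. Alox15 (2257 against 3.98 CPM) and Ltc4s (1344 against 83.6 CPM) are the most separated upward, and Hpgds is absent from the 18 cells.

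Outside the C1q macrophage-like class, most cells with at least 3 cavity markers had no Alox15 UMI. Over all classes 193 cells had at least 3 of them and 22 of these had Alox15, of which 15 were among the 18 C1q macrophage-like cells. Whether the list marks cavity macrophages in the other classes was not tested. Endothelial-like cells made up 67 of the 193 and classical monocyte-like cells 39, with Alox15 in 1 cell each. Single cells of high Alox15 in other classes carried their own class's markers and the cavity markers together. A B cell-like cell of library 5 with 20 UMIs, a classical monocyte-like cell of library 5 with 22, an endothelial-like cell of library 3 with 69 and a neutrophil-like cell of library 7 with 20 each had all 6 markers of their class, 4 to 6 cavity markers and 3 to 5 of the 6 C1q macrophage markers. Whether these are doublets was not tested beyond Scrublet, which called 0.307% of the cells of library 5.

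The remaining Alox15 cells were scattered. Club-like cells held 51 UMIs in 7 cells with a median depth of 55169 UMIs, against 7018.5 for the class, and their 2 cells of highest Alox15 had 25 and 17 UMIs and no more than 2 cavity markers. Conventional dendritic cell-like cells held 28 UMIs in 11 cells, of which 1 cell held 10. Of the markers of type 2 dendritic cells, the chemokine gene Ccl17 (7320 and 771 CPM) and the lectin gene Mgl2 (2948 and 685 CPM) were higher in those 11 cells than in the rest of the class. Cd209a (397 and 436 CPM), Clec10a (30.5 and 103), Flt3 (71.2 and 162) and H2-DMb2 (163 and 225) were lower. The 6 alveolar macrophage-like, 4 Arg1 Mmp12 macrophage-like and 5 fibroblast-like cells had 1 UMI each. None of these single UMIs was read as expression.

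Enzymes of the same route were also compared from cell to cell, as the share of cells with one among cells with and without another. With each cell thinned to 1500 UMIs, Ltc4s was found in 24.1% (13.5 to 37.6) of C1q macrophage-like cells with Alox5 and 9.35% (7.35 to 11.7) of those without. In alveolar macrophage-like cells it was in 41.7% (37.2 to 46.2) and 38.9% (37.0 to 40.8). With Alox5ap in place of Alox5, the shares with Ltc4s were 13.5% (46 of 341) and 7.98% (5.65 to 10.9) in C1q macrophage-like cells. Alox5ap was in 67.9% (63.5 to 72.1) of alveolar macrophage-like cells with Alox5 and 63.0% (61.1 to 64.8) of those without, and in 87.2% (82.4 to 91.0) and 82.1% (79.9 to 84.1) of neutrophil-like cells. Ptges was in 6.15% of fibroblast-like cells with Ptgs2 (4 of 65) and 8.55% of those without. Hpgds was in 19 of 127 C1q macrophage-like cells with Ptgs1 (9.25% to 22.4%) and in 16.1% (13.4 to 19.1) of those without. Of these comparisons, the intervals lay apart for Alox5 and Ltc4s in C1q macrophage-like cells. Those of the others overlap, which does not show that the shares are equal, and no difference was tested. Of the 18 cells with cavity markers, 17 held Ltc4s and 16 held Alox5 before thinning, and their part in this difference was not tested.

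A list of 47 other genes of the pathway was laid beside the enzymes. Of these, 46 were matched and 35 had at least 100 UMIs, and 10 of the 35 were led by a single class by at least 3-fold, beside 13.0% of all genes. Their median ratio of highest to next class was 2.18. In the release of arachidonic acid, Pla2g4a was highest in eosinophil-like cells at 203 CPM (141 to 284), and Pla2g2d was led by C1q macrophage-like cells at 39.1 (35.2 to 43.2). Of the terminal synthases, Tbxas1, for thromboxane, was at 227 CPM (161 to 311) in eosinophil-like and 169 (161 to 177) in C1q macrophage-like cells, and Ptgis, for prostacyclin, at 478 (468 to 489) in fibroblast-like cells. Dpep1, which processes cysteinyl leukotrienes, was led by fibroblast-like cells at 552 CPM (541 to 563).

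Genes that inactivate or clear the products were highest in several classes. Hpgd, which oxidises prostaglandins, was at 2194 CPM (2174 to 2214) in endothelial-like cells, and Slco2a1, their uptake carrier, was led by the same class at 1113 (1098 to 1127). Cyp4f18, which oxidises leukotriene B4, was led by eosinophil-like cells at 3392 CPM (3119 to 3683), against 973 (866 to 1089) in basophil-like cells.

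The receptors were highest in several classes, some of which also ranked first for an enzyme. The leukotriene B4 receptor Ltb4r1 was highest in classical monocyte-like cells at 133 CPM (125 to 142) and the cysteinyl leukotriene receptor Cysltr1 in conventional dendritic cell-like cells at 91.9 (87.2 to 96.9). For prostaglandin E2, Ptger4 was highest in mature dendritic cell-like cells at 206 CPM (190 to 224), Ptger1 was led by fibroblast-like cells at 18.4 (16.5 to 20.6) and Ptger3 by basophil-like cells at 74.1 (47.0 to 111). The prostacyclin receptor Ptgir was highest in Arg1 Mmp12 macrophage-like cells at 154 CPM (148 to 160). The prostaglandin D2 receptors Ptgdr and Ptgdr2 had 8 and 4 UMIs and were not ranked.

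Over the 22 classes, the genes whose log2(CPM + 1) was most alike, by Pearson's r, are given as a description, since the classes share libraries and depth. For Alox5 they were the complement receptors C5ar2 (0.888) and C5ar1 (0.882). For Ltc4s they were Rnf180 (0.901) and the mannose receptor Mrc1 (0.889). Alox15 was most like Il4 (0.849) and Gfi1b (0.844), Alox12 like the platelet gene Gp9 (0.837), and Ptgs2 like Rabgef1 (0.887) and Zfp36 (0.871). Alox12 had 292 UMIs in these classes and a median of 0.349 CPM, so its r rests on low counts. Ptgs2os2, also near the top for Ptgs2 (0.854), is named for the strand opposite to it. Whether reads of one gene were counted for the other was not tested. Ptges was most like Creb3l1 (0.923) and Hpgds like Gm13710 (0.795). Ptgs1 was most like C1rl (0.822), Alox5ap like I830077J02Rik (0.951) and Lta4h like Smad2 (0.858).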

How the data were processed

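Single-cell RNA counts of mouse lungs were analysed. The authors deposited UMI counts per gene and barcode as whole numbers in a pooled matrix, made with Cell Ranger 3.1.0 (file header) and its STAR aligner on mm10 per the labels. The methods state that reads were down-sampled to even the libraries, and name version 2 of the kit where the labels name v3. Symbols follow the deposited gene list, and gene positions come from the GENCODE annotation of GRCm38, the assembly that mm10 stands for.

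Barcodes with at most 10% mitochondrial UMIs were kept, with 45221640, 76435633, 44826864, 29619014, 31853337, 30325617 and 33298803 UMIs in libraries 1 to 7, so that 0 UMIs in a library allow 0.0392 to 0.101 CPM. Counts were scaled to 10000, log-transformed and reduced from 2000 variable genes, without the pathway's genes, to 30 principal components. Mutual nearest neighbors (20 per cell) served to align the libraries, and cells were grouped by the Leiden method at a resolution of 0.8 (Python 3.11.15, leidenalg 0.10.2, python-igraph 0.11.9, numpy 2.4.6, scipy 1.17.1, pandas 2.3.3, scikit-learn 1.9.0, matplotlib 3.10.9). A cluster took its name from the highest-scoring of 33 marker lists with at least 3 markers in 10% of its cells. A list was passed over if another had more markers among the cluster's 10 leading genes. Clusters far shallower than their libraries could take only the best list, with a marker among those genes. Scrublet (scanpy 1.11.5) called 106, 429, 168, 0, 15, 1 and 25 doublets in libraries 1 to 7. Called cells were kept, and the caller cannot be said to have worked in libraries 4, 5 and 6.

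Members and lists were chosen with earlier results of these data known. Chosen after seeing the clusters were the division of the cluster richest in Ccr3 into eosinophil-like and basophil-like parts, the merging of both conventional dendritic cell types, the omission of the innate lymphoid list and the split of C1q macrophage-like cells by cavity markers. Genes named are the 10 enzymes, the pathway list, markers, the most alike genes over the 22 classes and the 10 genes of highest fold in Alox15 cells. Acod1, Hmox1, Ccl17 and Mgl2 were singled out after their values were seen or as markers. The limit given beside a gene without UMIs is that of 3 counts, which was also the floor of the next class in ratios. With 1 pooled sample no test was run. Alternatives covered the cell filters, doublets, clustering, libraries and depth. The steps were tested on simulated data.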

Additional observations from a re-analysis of the deposited data

Results flagged for a closer look

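The 3726 barcodes with more than 10% mitochondrial UMIs took no part in the comparisons, and all 10 enzymes had UMIs there, above the 3 counts that a value of 0 allows. In the lipoxygenase arm these barcodes held 21.5 CPM of Alox5, 168 of Alox5ap, 46.0 of Lta4h, 70.2 of Ltc4s, 7.76 of Alox12 and 6.96 of Alox15. In the prostaglandin arm they held 57.5 CPM of Ptgs1, 36.5 of Ptgs2, 7.54 of Ptges and 11.6 of Hpgds. Alox15 was in 32 of them, with 95 UMIs.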

How the results depend on the processing

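The classes that ranked highest for the 10 enzymes were compared over 17 alternatives, and between 7 and 10 of the 10 stayed the same (7 to 10 also over the lung libraries left out in turn). Alox5, Lta4h and Alox15 moved from eosinophil-like to basophil-like or NK cell-like cells without library 7, with thinned cells, with the cluster richest in Ccr3 kept whole (an alternative added after seeing the data) and with classes from markers per cell. Without alignment, Alox5 alone of these moved, to basophil-like cells. At a resolution of 0.4, Ltc4s moved to Arg1 Mmp12 macrophage-like cells. Fewer than 50 eosinophil-like cells were left without library 7, and 14 with thinned cells. The number led by a single class stayed within 1.5 times, except for 1 without alignment and 4 without library 1, and ranged from 2 to 4 over the lung libraries left out in turn. The number of Alox15 cells outside eosinophils ranged from 88 to 140 over the libraries left out in turn, was 60 for thinned cells and 60 with at least 2 UMIs, and went up to 184 with the cluster kept whole. The cause of these changes was not tested. By construction, thinning and leaving out libraries bring a loss of cells and UMIs, and a class that is not ranked cannot be the highest. Of 157 levels in the highest class, 106 moved by less than their counting interval, 30 moved up and 21 down, and 3 by over 1.5 times. The mean over libraries gives no number of cells. At a median of 565.5 UMIs, few genes of the eosinophil-like cells can be read cell by cell. No paired analysis was possible because the matrix is 1 pooled sample whose libraries carry no replicate number.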
